A study of Mus musculus with 10 samples.

Results

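The comparison was between primary mouse microglia with and without lipopolysaccharide (LPS), the endotoxin of Gram-negative bacteria, in cells that all carried an EZH2 inhibitor. Libraries were chosen by their titles and make up 6 of the 10 in the series, 3 with LPS (PM_EPZ_LPS) and 3 without (PM_EPZ). Both groups received EPZ-6438 (tazemetostat) at 10 uM, and PM_EPZ_LPS also received LPS at 10 ng/ml, with 4 h given as the treatment time. The labels do not say whether the inhibitor was added ahead of LPS. Cells came from whole brains of 3-day-old ICR mice, an outbred stock, with 12 animals pooled, and were shaken off mixed glial cultures. More than 92% of the cells carried the myeloid surface protein CD11b by flow cytometry, per the labels' protocols. Cells without EPZ-6438 were not analysed here, and the effect of the inhibitor itself was not measured. Separate cultures are not named for the 3 libraries of a group, so a p-value speaks of the spread between these libraries, which may be technical. The series was set up to ask whether blocking EZH2 limits the activation of newborn microglia, and the comparison shows which genes responded to LPS in inhibited cells.

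Microglia are the resident macrophages of the brain. Their receptor for LPS is Toll-like receptor 4, which works with the co-receptor CD14. One adaptor branch of this receptor leads to NF-kB and MAP kinases and so to cytokines, and the other leads to interferon beta, which acts back on the cells and induces antiviral genes. EZH2 is the methyltransferase of Polycomb repressive complex PRC2, which marks the histones of silenced genes.

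Gene counts ran from 2.75 to 3.68 M (1e6) per library, with 14360 to 14838 genes detected. Rn45s, the ribosomal RNA precursor, held 50.3, 51.7 and 40.9% of gene counts in PM_EPZ replicates 1 to 3 and 43.7, 15.7 and 16% in PM_EPZ_LPS replicates 1 to 3. PM_EPZ_LPS replicate 1 thus resembled the libraries without LPS in this share, and its log2 levels correlated across genes at 0.958 and 0.961 with the other libraries with LPS, which correlated at 0.981 with each other. Over 7589 genes the slope of log2 level on transcript length was 0.188, 0.185 and 0.0794 per doubling without LPS and 0.0489, -0.196 and -0.148 with LPS. Where leaving out this library, or taking this share as a covariate, changed the call of a named gene or moved a list's count by over 1.5 times, that value is given beside it. With the share as a covariate, the effect of LPS rests largely on PM_EPZ_LPS replicate 1. A fit of that library alone against those without LPS rests on it too, so these fits are not separate checks. Total-count scaling, a further alternative, keeps Rn45s in the totals and so follows its share. Microglia and macrophage markers summed to between 3004 and 3475 CPM (counts per 1e6 counts, scaled by the trimmed mean of M values) without LPS and between 2866 and 3370 CPM with LPS. Of their 14 tested genes, 2 rose and 4 fell, and Siglech was at 0 in all 6 libraries. Astrocyte markers summed to 844 to 1404 CPM without and 841 to 1469 CPM with LPS, and fibroblast markers to 318 to 641 and 203 to 491 CPM. Of the 10 tested astrocyte markers 1 rose and 3 fell, and of the 10 tested fibroblast markers 0 were called. The markers of border macrophages and monocytes summed to 159 to 195 and 193 to 210 CPM, with Ccr2 and S100a9 at 0 in each library. The part of these other cells in the results was not tested.

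Strong responses went mostly upward. Of 10664 tested genes 39.2% were called at an adjusted p under 0.05, 21.4% higher and 17.8% lower with LPS. At 2-fold or more the counts were 1103 rises (10.3%) and 894 falls (8.38%), whereas at 8-fold or more they were 315 rises (2.95%) and 51 falls (0.478%). The ranges of both groups did not overlap for 49.0% of tested genes. The median log2 fold change over all tested genes was -0.03. CPM values are not scaled by gene length, so a higher CPM of one gene than of another is not read as a higher level. In bulk RNA a fall can mean fewer cells of a type or less RNA per cell, and the 2 cannot be told apart.

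**Figure D1:**
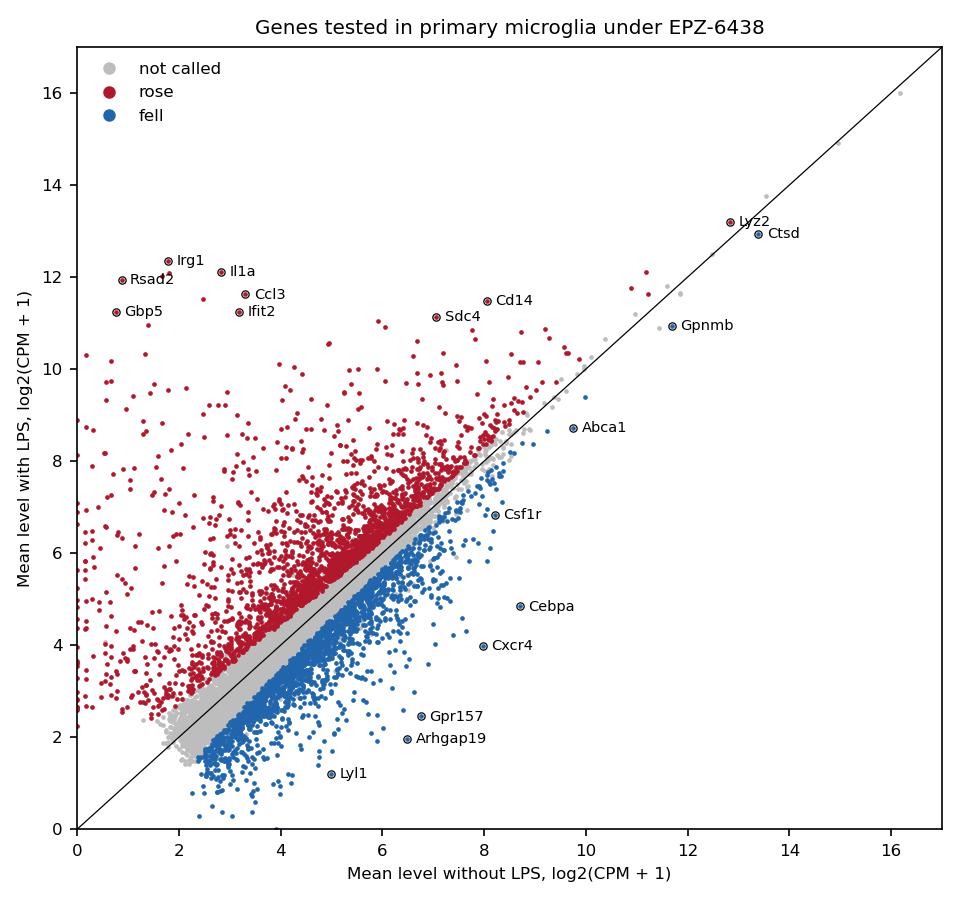
Mean level of each tested gene without LPS (horizontal axis) and with LPS (vertical axis), as log2(CPM + 1), n = 3 libraries per group, with Rn45s left out. Colours give the call at an adjusted p under 0.05 and the line marks equal levels. Red points reach far above the line at low starting levels, as for Irg1 and Rsad2, while the blue points lie closer to it.

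Measured as CPM gained, the response was led by a handful of genes that started near 0. Irg1 encodes the enzyme that makes the antimicrobial metabolite itaconate (chromosome 14, 103047012 to 103056573, RefSeq GRCm38.p6, as for all coordinates here). It was at 2.81, 1.92 and 2.65 CPM without LPS and at 4996, 5227 and 5451 CPM with LPS. Il1a, the alarm cytokine interleukin-1 alpha (chromosome 2, 129299609 to 129310186), was at 5.28, 4.99 and 7.94 CPM and then at 4349, 4005 and 4951 CPM. Within each group the libraries differed far less than the groups did, and no values overlapped. Cmpk2, a mitochondrial nucleotide kinase gene beside Rsad2, was at 1.06, 3.84 and 1.65 CPM without LPS and at 3814, 4085 and 4588 CPM under LPS (log2 fold change 10.91 ± 0.23, adjusted p = 6.70e-17). Ccl3, a chemokine for monocytes, was at 5.98, 8.06 and 12.6 CPM and then at 2941, 3083 and 3434 CPM (8.46 ± 0.20, adjusted p = 4.24e-16). Ifit2, an interferon-induced inhibitor of translation, was at 10.2, 7.29 and 6.61 CPM and then at 2387, 2185 and 2730 CPM (8.24 ± 0.18, adjusted p = 2.27e-17). For these genes PM_EPZ_LPS replicate 1 lay with or near the other libraries with LPS, despite its Rn45s share. Il1b, Rsad2, Tnf and Gbp5 were also among the 12 largest gains.

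The remaining members of that group, Cd14, Sdc4 and Lyz2, started from higher levels. Sdc4, the heparan sulfate proteoglycan syndecan-4 (chromosome 2, 164424247 to 164443188), was at 142, 131 and 124 CPM without LPS and at 1996, 2333 and 2377 CPM under LPS (log2 fold change 4.08 ± 0.12, adjusted p = 2.20e-15). Lyz2, the macrophage lysozyme gene, was at 7220, 6451 and 8315 CPM and then at 8660, 9643 and 10048 CPM. The ranges did not overlap, but the log2 fold change was 0.37 ± 0.12 (adjusted p = 0.0196). The Lyz2 call did not hold without PM_EPZ replicate 1 (adjusted p = 0.0765) or 2 (0.0988), without PM_EPZ_LPS replicate 2 (0.0641) or 3 (0.0942), with the Rn45s share as a covariate (0.328), with PM_EPZ_LPS replicate 1 alone against the libraries without LPS (0.287), with total-count scaling (0.354) and with a filter at 30 counts (0.0504).

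Promoters of 3 of these genes are shown because they gained the most CPM among those whose 250 bases before the annotated start lie outside the gene's own span and hold a searched motif. The sequences are from RefSeq, GRCm38.p6, 5′ to 3′ on the gene's strand, and capitals mark the motif matches. Rsad2 lies on the minus strand and its window is chr12:26456453-26456702. Gbp5 lies on the plus strand, window chr3:142496684-142496933, and Sdc4 on the minus strand, window chr2:164443189-164443438.
Rsad2: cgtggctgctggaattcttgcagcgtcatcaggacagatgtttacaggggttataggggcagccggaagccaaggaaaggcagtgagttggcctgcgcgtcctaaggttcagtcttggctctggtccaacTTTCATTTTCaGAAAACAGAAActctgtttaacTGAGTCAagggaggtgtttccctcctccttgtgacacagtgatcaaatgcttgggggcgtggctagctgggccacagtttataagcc
Gbp5: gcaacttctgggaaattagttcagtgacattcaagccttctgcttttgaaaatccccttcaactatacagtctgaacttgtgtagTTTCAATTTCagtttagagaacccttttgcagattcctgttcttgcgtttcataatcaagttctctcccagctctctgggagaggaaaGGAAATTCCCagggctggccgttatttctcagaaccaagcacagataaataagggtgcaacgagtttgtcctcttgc
Sdc4: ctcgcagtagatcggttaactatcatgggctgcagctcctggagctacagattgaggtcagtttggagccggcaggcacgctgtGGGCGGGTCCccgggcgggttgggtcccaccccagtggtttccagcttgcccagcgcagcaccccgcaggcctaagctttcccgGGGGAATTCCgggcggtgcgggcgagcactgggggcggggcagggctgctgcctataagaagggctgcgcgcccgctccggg
The motifs searched, on both strands, were a kB motif for NF-kB (GGG and TCC with 4 free bases between them), a narrower kB motif (GGG and TTTCC with 2 free bases, so that each match is also a match to the wider), interferon response elements (GAAA and GAAA with 2 or 3 free bases between them) and, as further stimulus-response motifs, TGACGTCA and TGANTCA. The Rsad2 window holds the interferon element with 2 free bases 120 bases before the start (the 5′ end of the match), that with 3 free bases at 109 bases and TGANTCA at 87 bases. In Gbp5 a single narrow kB match on the other strand lies at 77 bases and the interferon element with 2 free bases at 165 bases. Sdc4 holds the wide kB motif at 166 and 82 bases. Of all 32851 promoter windows of this length, 2.98% held the interferon element with 2 free bases, 2.38% that with 3, 1.41% the narrow and 16.5% the wide kB motif, 6.75% TGANTCA and 1.55% TGACGTCA. Among the 306 windows of the 246 matched genes that rose at least 8-fold, the shares were 20.3% and 4.25% for the interferon elements with 2 and 3 free bases, 5.88% and 26.5% for the narrow and wide kB motifs, 13.4% for TGANTCA and 0.654% for TGACGTCA. Over the 11068 windows of all tested genes the shares were 2.81% and 2% for the interferon elements, 1.46% and 20.6% for the narrow and wide kB motifs, 4.41% for TGANTCA and 2.59% for TGACGTCA. Among the 63 windows of the 41 matched genes that fell at least 8-fold they were 3.17% and 6.35%, 3.17% and 20.6%, 3.17% and 0%, in the same order. The interferon element with 3 free bases thus had a higher share in the windows of genes that fell than of genes that rose, by 4 of 63 against 13 of 306 windows. A match is a description of letters and not a shown binding site.

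Strong risers also lay next to each other on the chromosomes. Of 314 genes that rose at least 8-fold and have coordinates, 74.5% had an adjacent tested gene that rose, compared with 37.1% of all 10641 tested genes with coordinates. The share was 49.3% for all 2282 genes that rose and 30.4% for the 1889 that fell. Unbroken runs of at least 4 such risers held 6 Ifit genes on chromosome 19 (34550550 to 34662981), 9 genes of the Ifi200 cluster on chromosome 1 (173630859 to 174031755, log2 fold changes 4.26 to 8.33) and 5 guanylate-binding protein genes each on chromosomes 3 and 5. Other runs held 4 genes each, among them Slfn1 to Slfn4 on chromosome 11, Phf11a to Phf11d on chromosome 14 and Serpina3f to Serpina3i on chromosome 12. Members of these clusters are near-identical in part, and reads that map to several places were not counted, so single values within them are uncertain.

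**Figure D2:**
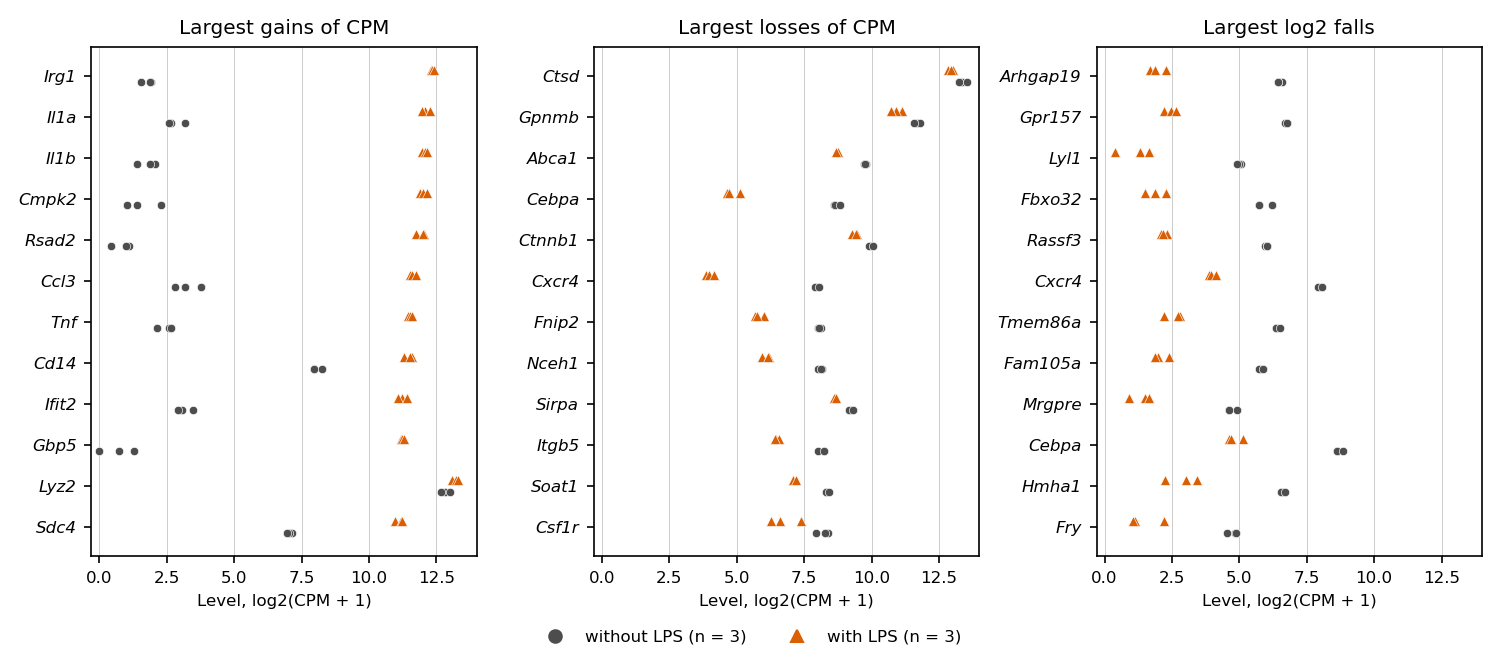
Level in each library, as log2(CPM + 1), of the 12 called genes with the largest gain and the 12 with the largest loss of mean CPM, and of the 12 largest log2 falls among genes with at least 20 CPM without LPS. Circles are libraries without LPS and triangles those with LPS (n = 3 each). The groups are apart for each gene shown, widely for Irg1 and Cxcr4 and narrowly for Lyz2 and Ctsd.

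The 12 largest losses of CPM ranged from abundant transcripts with a small fold change, led by Ctsd, to strong falls such as those of Cebpa and Cxcr4. Ctsd, the lysosomal protease cathepsin D, was at 10438, 9699 and 12046 CPM without LPS and at 7259, 8418 and 7864 CPM under LPS (log2 fold change -0.45 ± 0.12, adjusted p = 0.00458). This was the largest loss in CPM and among the smallest in fold, and it was lost with total-count scaling (-0.32, adjusted p = 0.595). Gpnmb, a transmembrane glycoprotein of phagocytes, was at 3300, 3551 and 3076 CPM and then at 2254, 1909 and 1703 CPM (-0.76 ± 0.12, adjusted p = 3.23e-05), a call also lost with total-count scaling (-0.65 ± 0.35, adjusted p = 0.19). Cebpa, the myeloid transcription factor C/EBP alpha (chromosome 7, 35119293 to 35121928), was at 394, 395 and 453 CPM and then at 23.7, 34.1 and 25.1 CPM (-3.90 ± 0.15, adjusted p = 5.32e-14). Cxcr4, the receptor for the chemokine CXCL12 (chromosome 1, 128588199 to 128592299), was at 247, 238 and 264 CPM and then at 13.5, 14.5 and 16.6 CPM (-4.05 ± 0.14, adjusted p = 1.32e-14). For Cebpa and Cxcr4 the highest library with LPS stayed below the lowest without LPS by a wide margin. Fnip2, a partner of folliculin in nutrient sensing, was at 275, 258 and 265 CPM and then at 62.8, 50.5 and 53.3 CPM. Nceh1, a cholesterol ester hydrolase gene, was at 286, 257 and 282 CPM and then at 60.6, 72.1 and 71.3 CPM. Soat1, which makes cholesterol esters, fell by 1.23 ± 0.11 on the log2 scale, so that both directions of this cycle had lower mRNA. Itgb5, an integrin subunit, fell by 1.70 ± 0.12 and Ctnnb1 and Sirpa by 0.59 ± 0.10 each. The Ctnnb1 and Sirpa calls were lost with total-count scaling (adjusted p = 0.397 and 0.368). Csf1r, the receptor that keeps microglia alive, was at 334, 311 and 242 CPM without LPS and at 168, 95.6 and 75.3 CPM under LPS (-1.40 ± 0.33, adjusted p = 0.0213). Its spread among libraries was wide, and the call did not hold without PM_EPZ replicate 1 (0.0551) or 2 (0.0632) or PM_EPZ_LPS replicate 2 (0.0752). Abca1 also belongs to these 12.

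Among genes with at least 20 CPM without LPS, the 12 largest log2 falls had log2 fold changes from -4.90 to -3.79. Arhgap19, Gpr157, Lyl1 and Fbxo32 led, followed by Rassf3, a Ras-association domain protein gene (chromosome 10, 121410350 to 121476250), at 60.9, 63.7 and 64.8 CPM without LPS and at 4.02, 3.26 and 3.43 CPM with LPS (-4.14 ± 0.19, adjusted p = 1.19e-12). Tmem86a, a lysoplasmalogenase-family gene, was at 80.6, 81.0 and 89.9 CPM and then at 3.65, 5.94 and 5.54 CPM (-4.02 ± 0.18). Hmha1, listed today as Arhgap45, was at 96.4, 91.7 and 103 CPM and then at 9.86, 7.12 and 3.70 CPM (-3.86 ± 0.22). Rassf3, Tmem86a and Hmha1 each had nearly the same level in the 3 libraries without LPS and lost most of it in each library with LPS. Fbxo32 varied more, at 72.1, 52.2 and 51.9 CPM without LPS. Fam105a (-4.01 ± 0.21), Mrgpre, an orphan receptor gene (-3.95 ± 0.30), and Fry (-3.79 ± 0.33) complete the group with Cxcr4 and Cebpa.

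The wider response is described with gene lists. Rises and falls are counts of called genes among tested members, to be read against 21.4% and 17.8% for all tested genes, and medians against -0.03. A member near 0 in one group passed the count filter through the other, and a member low in both was not tested. Counts and medians of lists with few tested members thus follow in part from the filter. Named members are the 2 called genes with the largest rise, the 2 with the largest fall and the gene with the most CPM in a list, or were chosen after their values were seen.

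**Figure D3:**
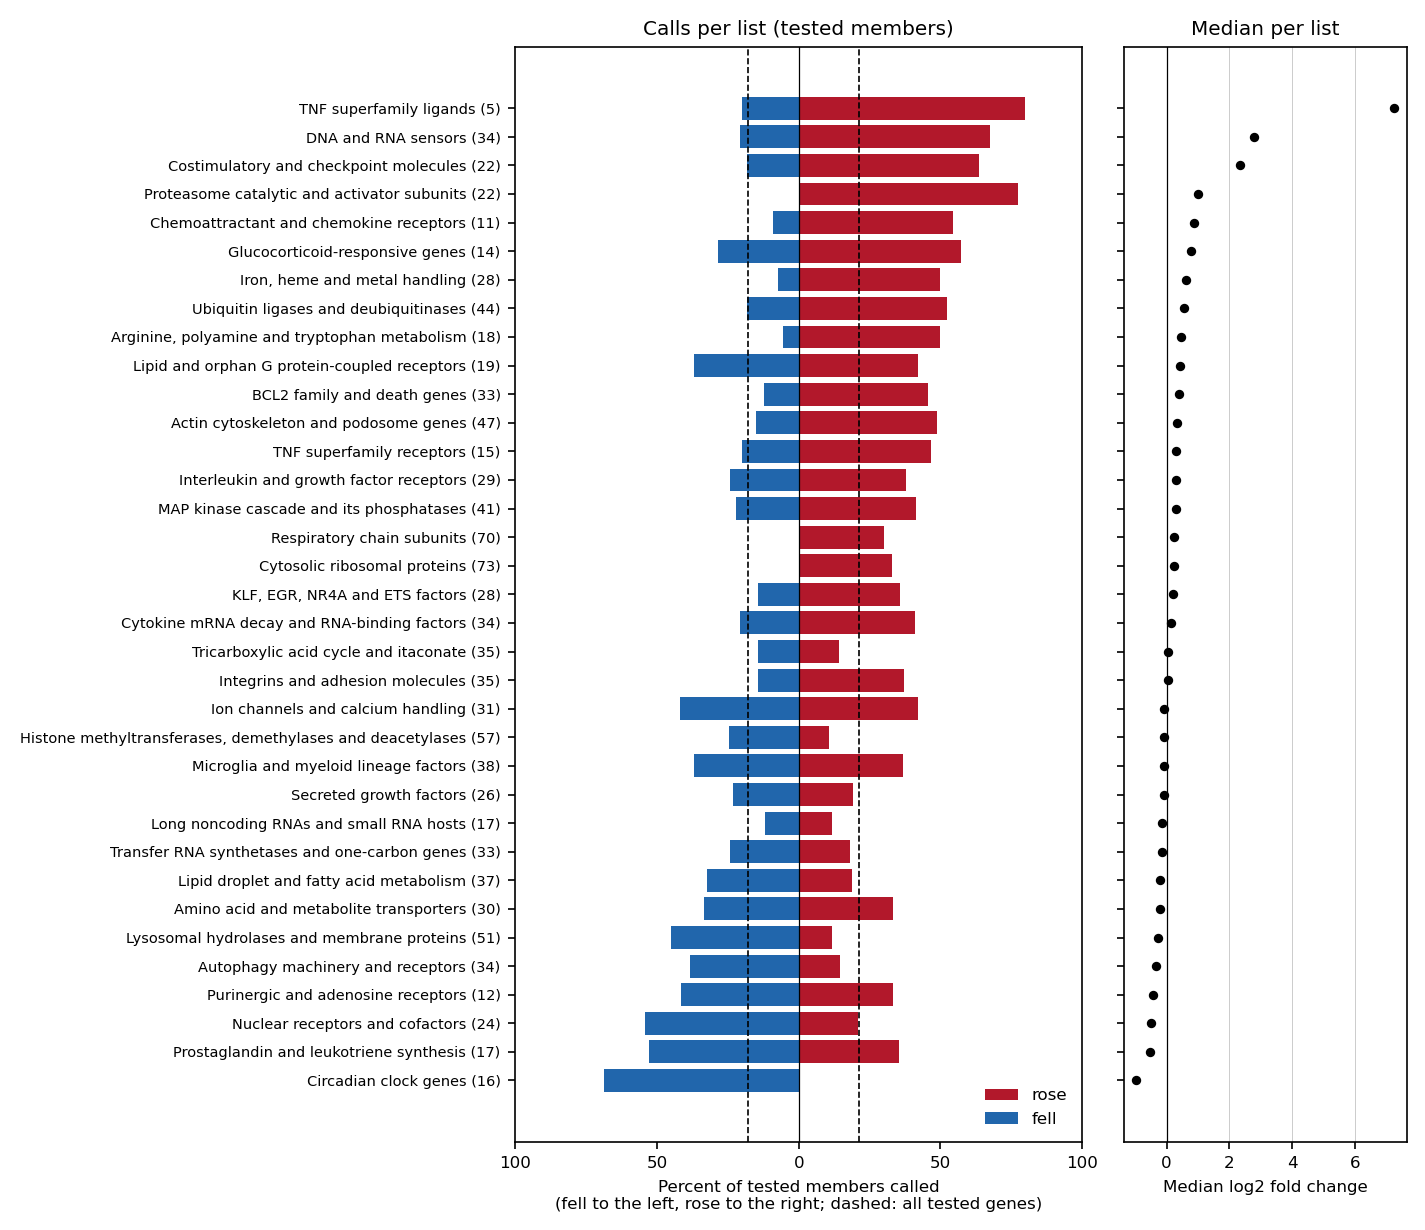
Percent of the tested members of each list that rose (red, to the right) and fell (blue, to the left), with the number tested in brackets and the shares over all tested genes as dashed lines, and the median log2 fold change of each list. Lists are ordered by median, from ligands of the TNF superfamily at 7.25 (5 of 17 members tested) to circadian clock genes at -0.96.

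Chemoattractant receptors rose more often than they fell, while genes of purinergic signalling moved in both directions. Of 22 chemoattractant receptors 11 were tested, and of these 6 rose and 1 fell (median 0.87). The count of falls was 2 without PM_EPZ replicate 2 or without any 1 of the PM_EPZ_LPS libraries. Ccrl2, which binds chemerin and holds it at the surface, was at 14.8, 13.8 and 19.5 CPM without LPS and at 757, 775 and 861 CPM under LPS (log2 fold change 5.63 ± 0.15, adjusted p = 4.41e-16). The formyl peptide receptor Fpr2 had 0.220 ± 0.382 CPM without LPS, at or under the detection limit, and 76.5 ± 12.0 CPM with LPS, a ratio of 329 (95% counting interval 90.8 to 2723). The complement receptors C5ar1 and C3ar1 rose from 47.7 to 258 CPM and from 248 to 453 CPM, and the single member that fell was Cxcr4. Of 12 genes of purinergic and adenosine signalling 4 rose and 5 fell (median -0.42). Both A2 adenosine receptors rose, Adora2b from 0.483 ± 0.247 to 20.4 ± 0.817 CPM and Adora2a with a ratio of 360 (64.3 to 14269). The ATP-gated channel P2rx7, which triggers the NLRP3 inflammasome, was at 56.6, 63.7 and 74.4 CPM and then at 26.6, 20.5 and 21.9 CPM (-1.5 ± 0.16, adjusted p = 2.32e-07). The ADP receptors P2ry12, P2ry13 and P2ry1 and the ectonucleotidase Entpd1 fell as well. P2ry12 was low throughout, at 3.87, 6.53 and 5.62 CPM without LPS and at 1.83, 2.37 and 1.58 CPM with LPS. The P2ry12 call was lost with the Rn45s share as a covariate (adjusted p = 0.0582) and with PM_EPZ_LPS replicate 1 alone against the libraries without LPS (0.0753), and the Entpd1 call with total-count scaling (0.203). P2rx4 was at 135 ± 21.0 and 120 ± 10.4 CPM (adjusted p = 0.317), but was called lower with the covariate (-0.39 ± 0.15, adjusted p = 0.0363). Of 19 lipid and orphan receptors 8 rose and 7 fell (median 0.42), or 5 and 8 with PM_EPZ_LPS replicate 1 alone against the libraries without LPS. Hcar2, a receptor for beta-hydroxybutyrate, was at 2.46, 2.30 and 2.98 CPM and then at 273, 310 and 316 CPM (6.83 ± 0.18, adjusted p = 4.15e-16), and Gpr84, a receptor for medium-chain fatty acids, was at 3.52, 1.54 and 4.63 CPM and then at 239, 228 and 223 CPM. Lpar6 and the sphingosine phosphate receptor S1pr1 fell, from 43.7 to 9.10 CPM and from 139 to 68.1 CPM.

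Cytokine receptors and surface ligands moved in both directions. Of 29 receptors and antagonists of interleukins and growth factors 11 rose and 7 fell (median 0.31). Il1rn, which encodes the interleukin-1 receptor antagonist, was at 8.79, 7.68 and 8.93 CPM without LPS and at 345, 365 and 444 CPM under LPS (log2 fold change 5.49 ± 0.16, adjusted p = 1.65e-15). Il15ra and the oncostatin receptor Osmr rose, from 2.24 to 52.0 CPM and from 28.8 to 91.1 CPM, and so did both chains of the type I interferon receptor, Ifnar1 from 139 to 309 CPM and Ifnar2 from 56.0 to 105 CPM. Il6ra, the interleukin-6 receptor chain, fell from 19.8 ± 2.32 to 2.55 ± 2.23 CPM, and the transforming growth factor beta receptor Tgfbr1 from 266 to 123 CPM. Csf2rb, a shared chain of cytokine receptors, was at 304 ± 11.1 and 278 ± 30.9 CPM (adjusted p = 0.403). Of 17 TNF superfamily ligands 5 were tested, and of these 4 rose and 1 fell. Tnfsf10 (TRAIL) was at 0.704, 0.384 and 0.331 CPM without LPS and at 89.4, 82.2 and 108 CPM with LPS. With 4 counts without LPS and 932 with LPS, Tnfsf10 passed the count filter through the libraries with LPS. Tnfsf12 (TWEAK) fell from 7.22 ± 2.34 to 1.25 ± 0.858 CPM. Of 15 receptors of that family 7 rose and 3 fell (median 0.31). Tnfrsf1b, the second receptor for TNF, was at 212, 213 and 220 CPM and then at 1950, 1853 and 1698 CPM (3.09 ± 0.11, adjusted p = 2.59e-14), while the death receptor Tnfrsf21 was at 147, 156 and 178 CPM and then at 36.9, 49.3 and 43.3 CPM.

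Of 22 costimulatory and checkpoint molecules 14 rose and 4 fell (median 2.33), or 14 and 2 with total-count scaling. The checkpoint ligand Cd274 (PD-L1) was at 48.9, 42.2 and 43.6 CPM without LPS and at 973, 973 and 1109 CPM under LPS (log2 fold change 4.5 ± 0.13, adjusted p = 9.08e-16). The activation marker Cd69 had a ratio of 1743 (482 to 14394), and Icosl, the ligand of ICOS on T cells, rose from 7.23 to 194 CPM. Cd80 and Cd86, the ligands of CD28, rose from 3.25 to 22.5 CPM and from 39.6 to 86.5 CPM. Vsir, the checkpoint molecule VISTA, listed as 4632428N05Rik, moved the other way, from 162, 150 and 167 CPM to 26.3, 35.9 and 28.0 CPM (-2.41 ± 0.14, adjusted p = 3.40e-11). Sirpa, whose ligand is CD47, fell, a call that total-count scaling ended, whereas Cd47 itself rose from 29.4 to 134 CPM. Of 26 secreted growth factors 5 rose and 6 fell, with a median of -0.09 that was 0.04 with total-count scaling. The count of falls was 3 with that scaling and without PM_EPZ replicate 1. Csf2 (GM-CSF) went from 0 counts in all 3 libraries to 11.3 ± 2.5 CPM, at least 31.7-fold higher. Pdgfb rose from 20.4 ± 2.42 to 203 ± 19.8 CPM. Hgf, hepatocyte growth factor, was at 48.2, 48.8 and 50.6 CPM and then at 6.94, 9.20 and 9.77 CPM. Igf1 was at 247 ± 19.9 and 225 ± 27.2 CPM (adjusted p = 0.403).

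Sensors of nucleic acids mostly rose. Of 34 tested DNA and RNA sensors 23 rose and 7 fell (median 2.80), or 21 and 4 with total-count scaling and 22 and 4 with the Rn45s share as a covariate. Ifih1 (MDA5), a sensor of long double-stranded RNA, was at 4.57, 7.29 and 3.31 CPM without LPS and at 793, 442 and 537 CPM under LPS (log2 fold change 6.88 ± 0.35, adjusted p = 2.68e-06). Here PM_EPZ_LPS replicate 1 was the highest, as it was for the RNA sensor Ddx58 (RIG-I), at 124, 41.3 and 46.7 CPM with LPS after a mean of 2.51 CPM. The DNA sensors Ifi204 and Aim2 rose from 3.11 to 330 CPM and from 21.3 to 86.5 CPM. Those that fell included Tlr13, a receptor for bacterial ribosomal RNA, from 120, 119 and 130 CPM to 27.7, 33.8 and 34.9 CPM (-1.93 ± 0.13, adjusted p = 4.78e-10), and Tlr8, Nlrc3 and the adaptor Tmem173 (STING), the last from 14 to 5.71 CPM.

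Kinases, phosphatases and ubiquitin enzymes rose more often than they fell. Of 41 genes of the MAP kinase cascade 17 rose and 9 fell (median 0.29), or 13 and 4 with total-count scaling. Mapkapk2, the kinase downstream of p38, was at 98.8, 96.0 and 108 CPM without LPS and at 882, 1042 and 988 CPM under LPS (log2 fold change 3.27 ± 0.12, adjusted p = 3.14e-14). Its relative Mapkapk3 fell from 28.4 to 13.9 CPM. Ikbke, an IRF-activating kinase, rose from 20.8 ± 0.853 to 308 ± 30.1 CPM, and the phosphatase Dusp2 from 1.20 ± 0.791 to 50.1 ± 9.96 CPM. Map3k1 was at 85.8, 85.2 and 69.1 CPM and then at 23.4, 17.2 and 14.3 CPM. Of 44 ubiquitin ligases and deubiquitinases 23 rose and 8 fell (median 0.54), or 20 and 5 with total-count scaling. Tnfaip3 (A20), which limits NF-kB, was at 20.1, 16.1 and 25.1 CPM and then at 926, 943 and 965 CPM (5.52 ± 0.15, adjusted p = 5.45e-16). Usp18, which removes ISG15 from proteins, was at 1.76, 3.07 and 1.65 CPM and then at 431, 448 and 471 CPM. In contrast Fbxo32, a ligase subunit known from muscle wasting, and Rnf144b fell, the latter from 31.0 to 2.24 CPM. Of 34 factors of cytokine mRNA decay 14 rose and 7 fell (median 0.16), or 10 and 2 with total-count scaling and 16 and 3 with the Rn45s share as a covariate. Falls numbered 4 without PM_EPZ replicate 2 or 3 or PM_EPZ_LPS replicate 2. The endonuclease genes Zc3h12c and Zc3h12a (Regnase-1) rose from 20.5 ± 2.00 to 295 ± 20.3 CPM and from 11.5 ± 1.49 to 123 ± 6.98 CPM. Within the ZFP36 family, whose proteins bind AU-rich elements, Zfp36 rose from 23.9 to 94.7 CPM and Zfp36l2 and Zfp36l1 fell, from 46.6 to 8.80 CPM and from 68.3 to 45.6 CPM, the latter call lost with total-count scaling (adjusted p = 0.367).

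The proteasome list had no falls. Of 22 tested catalytic and activator subunits 17 rose (77.3%) and 0 fell (median 1.01), and over the alternatives tried between 13 and 20 rose and 0 fell. The 3 subunits of the immunoproteasome, which favours peptides for MHC class I, were among the largest rises. Psmb9 was at 5.28, 3.46 and 6.61 CPM without LPS and at 65.3, 84.6 and 83.4 CPM under LPS (log2 fold change 3.90 ± 0.21, adjusted p = 1.04e-11), Psmb10 rose from 23.5 to 178 CPM and Psmb8 from 3.25 to 24.3 CPM. The activator subunit Psme2 was at 41.9, 37.6 and 45.3 CPM and then at 322, 370 and 359 CPM (3.07 ± 0.13, adjusted p = 2.13e-13). The subunits that the inducible ones replace, Psmb6, Psmb7 and Psmb5, rose too, from 80.4 to 169, from 49.6 to 88.1 and from 20.4 to 37.8 CPM. The Psmb5 call was lost with the Rn45s share as a covariate (adjusted p = 0.106) and with PM_EPZ_LPS replicate 1 alone against the libraries without LPS (0.0565). Median transcript length of the list was 1512 bases, compared with 3573 for all tested genes.

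Clock genes formed the opposite case. Of 16 tested 0 rose and 11 fell (68.8%, median -0.96), and over the alternatives tried between 8 and 12 fell and 0 rose. Dbp, a clock-driven transcription factor, was at 15.5, 12.7 and 16.9 CPM without LPS and at 2.56, 1.78 and 3.17 CPM under LPS (log2 fold change -2.56 ± 0.30, adjusted p = 9.40e-07). Per1, a repressor in the clock's feedback loop, was at 15.5, 14.2 and 10.9 CPM and then at 4.38, 1.78 and 1.85 CPM (-2.39 ± 0.33, adjusted p = 1.04e-05). All 3 Period genes fell, with Per2 from 6.80 to 1.71 CPM and Per3 from 22.5 to 9.47 CPM. Cry2 fell from 10.4 to 3.34 CPM, a call lost with the Rn45s share as a covariate (adjusted p = 0.053), while Cry1 was not called. Of the activator pair, Arntl (BMAL1) was not called, and Clock went from 23.2 to 13.3 CPM. The Clock call was lost whenever a library other than PM_EPZ_LPS replicate 1 was left out (adjusted p between 0.0601 and 0.122), with PM_EPZ_LPS replicate 1 alone against the libraries without LPS (0.682), with total-count scaling (0.0887) and with the Rn45s share as a covariate (0.798). Bhlhe41, also a repressor of immune genes in macrophages, fell from 108 to 39.8 CPM and Tef from 59.0 to 22.8 CPM. The labels give no time of day for the cultures.

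**Figure D4:**
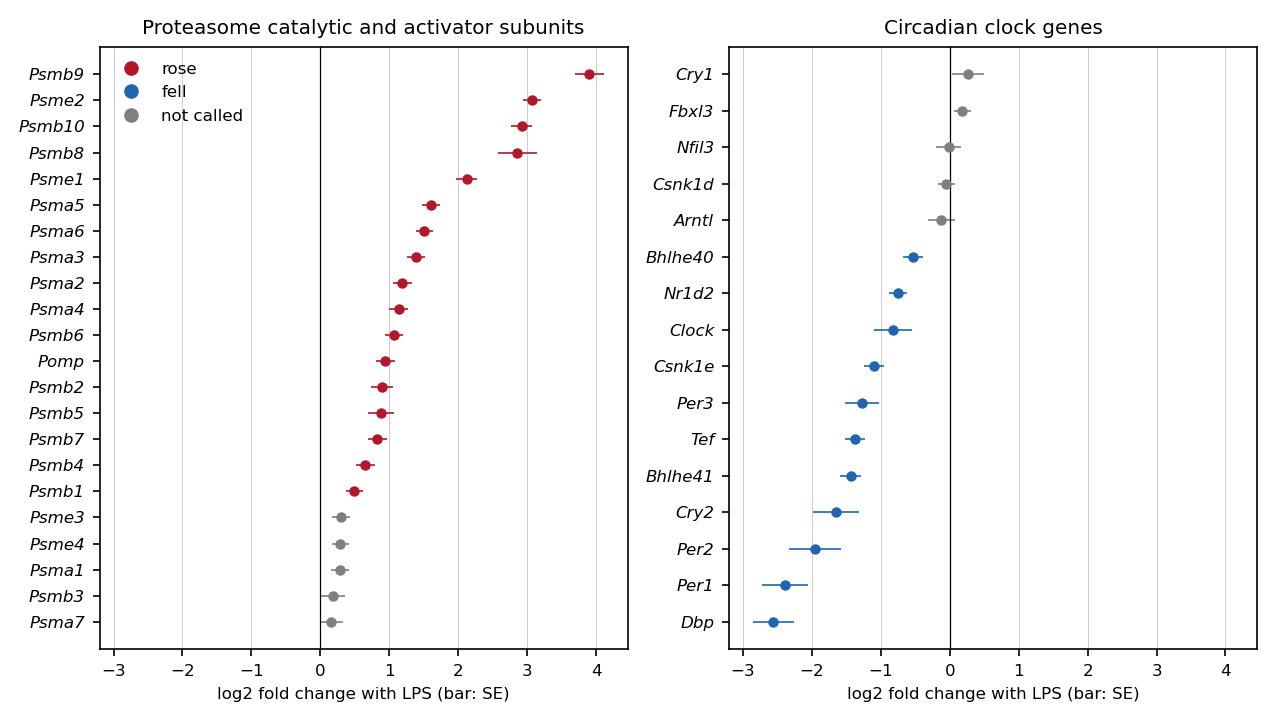
log2 fold change with LPS, with its SE as a bar, of each tested proteasome gene (left) and clock gene (right), n = 3 libraries per group, coloured by call. In the proteasome list 17 of 22 genes are red and 0 blue, and in the clock list 11 of 16 are blue and 0 red.

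Transcription factors split within families. Of 38 factors of the microglial and myeloid lineage 14 rose and 14 fell, with a median of -0.09 that was 0.01 with total-count scaling. Spi1 (PU.1), the master factor of myeloid cells, was at 81.6, 87.1 and 107 CPM without LPS and at 234, 299 and 248 CPM under LPS (log2 fold change 1.5 ± 0.13, adjusted p = 2.28e-08). Of the C/EBP factors Cebpd and Cebpb rose, from 15.7 to 82.0 CPM and from 16.3 to 53.2 CPM, and Cebpa and Cebpg fell, the latter from 44.0 to 19.3 CPM. The transcription factor gene Maf rose from 53.2 to 169 CPM. Mef2a, Mef2c and Mef2d fell, from 104 to 60.6, from 36.6 to 16.6 and from 46.8 to 13.1 CPM, of which the Mef2a call was lost with total-count scaling (adjusted p = 0.12). Batf2 rose from 0.722 ± 0.403 to 44.7 ± 4.93 CPM. Zeb2, a zinc finger transcription factor, rose from 405 ± 13.5 to 629 ± 54.3 CPM, a call that total-count scaling ended. Of 28 KLF, EGR, NR4A and ETS factors 10 rose and 4 fell (median 0.20), or 7 and 2 with total-count scaling and 10 and 2 with the Rn45s share as a covariate. Ets2 rose from 25.3 ± 2.20 to 168 ± 12.8 CPM, and Fli1 fell from 36.3 ± 5.55 to 13.8 ± 2.5 CPM. Of 24 nuclear receptors and cofactors 5 rose and 13 fell (median -0.50). Rxra, the shared partner of LXR, PPAR and retinoic acid receptors, was at 126, 118 and 136 CPM and then at 26.3, 19.9 and 17.2 CPM (-2.60 ± 0.15, adjusted p = 5.03e-11). The glucocorticoid receptor Nr3c1 rose from 77.9 ± 3.5 to 222 ± 17.1 CPM. The count of falls in this list was 7 with total-count scaling, 8 without PM_EPZ replicate 2 and 8 with PM_EPZ_LPS replicate 1 alone against the libraries without LPS. Of 14 genes known to respond to glucocorticoids 8 rose and 4 fell (median 0.77). Tsc22d3 (GILZ), a glucocorticoid-induced leucine zipper, was at 46.8, 47.6 and 49.6 CPM and then at 3.29, 7.12 and 7.66 CPM (-2.94 ± 0.22, adjusted p = 1.77e-09), whereas Cdkn1a rose from 79.0 ± 3.76 to 415 ± 3.65 CPM.

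Enzymes of small signalling molecules moved in opposite directions within families. Of 17 genes of prostaglandin and leukotriene synthesis 6 rose and 9 fell (median -0.53), or 5 and 4 with total-count scaling. Ptges, prostaglandin E synthase, was at 6.33, 6.91 and 4.30 CPM without LPS and at 556, 651 and 587 CPM under LPS (log2 fold change 6.68 ± 0.17, adjusted p = 2.23e-16). The inducible cyclooxygenase Ptgs2 was at 70.7, 54.1 and 70.1 CPM and then at 745, 821 and 977 CPM (3.70 ± 0.14, adjusted p = 7.51e-14), while the constitutive Ptgs1 fell from 40.4 to 13.3 CPM. Hpgd, which breaks prostaglandins down, fell from 11.7 ± 1.30 to 1.87 ± 1.01 CPM, and Hpgds, the prostaglandin D synthase, from 42.1 to 19 CPM. Of 18 genes of arginine, polyamine and tryptophan metabolism 9 rose and 1 fell (median 0.47). Slc7a2, the inducible arginine transporter, was at 68.2, 70.3 and 57.2 CPM and then at 2005, 1831 and 1960 CPM (4.89 ± 0.13, adjusted p = 3.68e-16). Gch1, which makes the cofactor of nitric oxide synthase, rose from 4.58 to 107 CPM. Odc1, the first enzyme of polyamine synthesis, rose from 58.6 to 96.5 CPM, together with Sms and Smox.

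Metabolic genes moved in both directions. Of 35 genes of the tricarboxylic acid cycle and itaconate synthesis 5 rose and 5 fell (median 0.05), and Irg1 was the only one to rise at least 2-fold. The rises and falls were 1 and 4 without PM_EPZ replicate 1, 3 and 3 without PM_EPZ replicate 2, 3 and 4 without PM_EPZ_LPS replicate 2, 2 and 3 without PM_EPZ_LPS replicate 3, 1 and 4 with total-count scaling, and 2 and 2 with the Rn45s share as a covariate. Idh1, a list member that encodes the cytosolic isocitrate dehydrogenase and not the enzyme of the cycle, fell from 21.6 ± 3.44 to 6.92 ± 5.17 CPM. Its call was lost with PM_EPZ_LPS replicate 1 alone against the libraries without LPS (adjusted p = 0.0507) and with the covariate (0.119). Of 37 genes of lipid droplets and fatty acids 7 rose and 12 fell (median -0.21), or 6 and 6 with total-count scaling. Ch25h, which makes 25-hydroxycholesterol, was at 3.87, 3.07 and 3.31 CPM without LPS and at 675, 785 and 857 CPM under LPS (log2 fold change 7.80 ± 0.18, adjusted p = 6.70e-17). Cyp27a1, the enzyme of another oxysterol, fell from 9.77 ± 0.872 to 1.66 ± 0.519 CPM. The acyl-CoA synthetases Acsl1, Acsl4 and Acsl5 rose, from 23.3 to 161, from 77.8 to 222 and from 37.2 to 149 CPM. Fasn, fatty acid synthase, fell from 72.9 to 39.1 CPM, a call lost with the Rn45s share as a covariate (adjusted p = 0.148) and with PM_EPZ_LPS replicate 1 alone against the libraries without LPS (0.141). Of 30 transporters 10 rose and 10 fell (median -0.21). Slc2a6, a hexose carrier of lysosomes, and Slc15a3, a peptide and histidine carrier of endosomes, rose from 7.68 ± 2.31 to 236 ± 29.6 CPM and from 122 ± 5.91 to 929 ± 23.8 CPM. The glutamine carriers Slc38a1 and Slc38a2 fell from 133 to 70.1 CPM and from 119 to 67.5 CPM, calls that total-count scaling ended (adjusted p = 0.0619 and 0.125). Of 28 genes of iron, heme and metals 14 rose and 2 fell (median 0.62), or 15 and 4 with the Rn45s share as a covariate. Slc40a1 (ferroportin), the only known iron exporter, was at 67.2, 86.8 and 79.7 CPM and then at 20.1, 26.7 and 20.3 CPM (-1.79 ± 0.16, adjusted p = 1.80e-08). The importers Slc39a14 and Slc11a2 rose, from 9.49 to 41.2 CPM and from 60.7 to 175 CPM. Ferritin chains differed, with Fth1 up from 1901 to 3459 CPM and Ftl1 at 3699 ± 397 and 3165 ± 245 CPM (adjusted p = 0.119). Ftl1 was called lower with the Rn45s share as a covariate (-0.34 ± 0.14, adjusted p = 0.0498) and with a filter at 30 counts (-0.29 ± 0.11, adjusted p = 0.0427).

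More lysosomal and autophagy genes fell than rose, and total-count scaling, which follows the Rn45s share, called fewer of them. Of 51 lysosomal genes 6 rose and 23 fell (median -0.29), and with total-count scaling 3 rose and 7 fell. Sgsh, a heparan sulfatase, was at 35.2, 38.8 and 36.4 CPM without LPS and at 5.84, 4.45 and 5.02 CPM under LPS (log2 fold change -2.85 ± 0.21, adjusted p = 1.26e-09). The cholesterol exporter of lysosomes Npc1 fell from 122 to 51.3 CPM while its soluble partner Npc2 rose from 336 to 594 CPM. Tfeb, a master factor of lysosome genes, was at 14.4, 15.4 and 19.8 CPM and then at 5.84, 5.05 and 5.28 CPM, and its relative Mitf rose from 43.7 ± 8.59 to 128 ± 12.2 CPM. Cathepsins parted as well: Ctsc, which activates serine proteases, was at 124, 82.2 and 101 CPM and then at 729, 827 and 881 CPM, Ctsl rose from 797 to 1309 CPM, and Ctsd fell. The Ctsl call was lost with total-count scaling (adjusted p = 0.0626). Of 34 autophagy genes 5 rose and 13 fell (median -0.32), or 1 and 10 with total-count scaling. Rises numbered 8 without PM_EPZ_LPS replicate 1 and 3 without any 1 of the PM_EPZ libraries or PM_EPZ_LPS replicate 3. The initiating kinases Ulk1 and Ulk2 fell, from 30.2 ± 2.55 to 7.92 ± 2.98 CPM and from 84.4 to 37.6 CPM, as did Map1lc3b (LC3B) from 96.7 to 47.6 CPM. The cargo receptor Sqstm1 (p62) was at 399, 431 and 425 CPM and then at 1098, 1262 and 1031 CPM (1.44 ± 0.11, adjusted p = 2.62e-09).

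Actin genes rose more often than they fell. Of 47 actin and podosome genes 23 rose and 7 fell (median 0.33), or 15 and 6 with total-count scaling. Marcksl1, a membrane-bound actin regulator, was at 40.5, 35.3 and 35.4 CPM without LPS and at 704, 721 and 704 CPM under LPS (log2 fold change 4.26 ± 0.12, adjusted p = 1.22e-15). Actb rose from 2316 ± 162 to 4398 ± 205 CPM, and the branching complex genes Actr2 and Actr3 from 287 to 651 CPM and from 213 to 420 CPM. Myo1f, a myosin of myeloid cells, was at 159, 145 and 157 CPM and then at 32.5, 28.5 and 33.8 CPM. Of 35 integrins and adhesion genes 13 rose and 5 fell (median 0.05), with 2 falls under total-count scaling and 3 without PM_EPZ replicate 3 or PM_EPZ_LPS replicate 3. Itga5, the fibronectin receptor subunit, rose from 109 to 650 CPM, and Cd44, a receptor for hyaluronan, from 587 ± 19.3 to 1866 ± 169 CPM. Vcam1 was at 7.39, 4.99 and 3.97 CPM and then at 65.3, 24.0 and 22.4 CPM, with PM_EPZ_LPS replicate 1 far above the others. Its call did not hold without PM_EPZ replicate 2 or 3 (adjusted p = 0.0669 for each). Of 31 ion channel and calcium genes 13 rose and 13 fell, with a median of -0.07 that was 0.00 with total-count scaling. Falls numbered 6 with that scaling, 7 without PM_EPZ replicate 1 and 8 with the Rn45s share as a covariate. Clic4, a chloride intracellular channel gene, was at 153, 137 and 142 CPM and then at 1382, 1188 and 1365 CPM (3.18 ± 0.12, adjusted p = 3.33e-14). The potassium channel Kcna3 (Kv1.3) rose from 9.52 to 47.3 CPM while Kcnk13 (THIK-1), the channel that sets the resting potential of microglia, fell from 9.74 ± 1.21 to 2.37 ± 0.710 CPM.

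Cell death genes rose more often than they fell. Of 33 genes of the BCL2 family and cell death 15 rose and 4 fell (median 0.40). Cflar, which blocks caspase-8, rose from 46.5 to 574 CPM, and the survival gene Mcl1 from 252 ± 8.54 to 377 ± 28.9 CPM, a call that total-count scaling ended. Copies of Bcl2a1 rose, Bcl2a1b from 44.9 to 563 CPM and Bcl2a1a with a ratio of 371 (102 to 3069), but they are near-identical and their counts are uncertain. All 4 falls were of genes that promote death: the BH3-only genes Bmf, Bbc3 (PUMA) and Pmaip1 (NOXA) and the caspase Casp9. Bmf was at 26.7, 31.5 and 37.4 CPM without LPS and at 3.65, 3.26 and 2.90 CPM under LPS (log2 fold change -3.28 ± 0.25, adjusted p = 1.90e-09), and Casp9 fell from 35.4 to 14.8 CPM. The Pmaip1 call did not hold without PM_EPZ_LPS replicate 3 (adjusted p = 0.0641). Among genes that act in lytic death, Gsdmd rose from 22.0 to 64.8 CPM, Mlkl from 0.793 to 11.7 CPM and Casp4 from 5.32 to 147 CPM.

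The mRNA of the inhibited enzyme was not called. Ezh2, the target of EPZ-6438, was at 16.2, 17.3 and 17.5 CPM without LPS and at 16.4, 13.7 and 11.9 CPM with LPS (adjusted p = 0.281), and the groups overlapped. The inhibitor blocks the enzyme's activity, so this mRNA does not check the treatment. Eed was at 20.8, 26.1 and 22.5 CPM and then at 20.4, 25.5 and 30.6 CPM (adjusted p = 0.538). The calls of the other 2 named members did not hold in each fit. Ezh1 was at 34.8, 26.5 and 24.8 CPM and then at 22.6, 14.5 and 15.3 CPM (adjusted p = 0.00867, but 0.0863 without PM_EPZ replicate 1, 0.0574 without PM_EPZ_LPS replicate 3, 0.444 with the Rn45s share as a covariate, 0.361 with PM_EPZ_LPS replicate 1 alone against the libraries without LPS and 0.16 with total-count scaling), and Suz12 was at 35.9, 41.5 and 33.1 CPM and then at 51.1, 45.7 and 61.5 CPM (adjusted p = 0.00989, but 0.0607 without PM_EPZ replicate 3, 0.0718 without PM_EPZ_LPS replicate 3, 0.111 with total-count scaling and 0.0503 with all 10 libraries in 1 fit). Of 57 histone methyltransferases, demethylases and deacetylases 6 rose and 14 fell (median -0.07). With the Rn45s share as a covariate, a fit that rests largely on PM_EPZ_LPS replicate 1, 10 rose and 5 fell. Without that library 7 rose and 23 fell, so the balance of this list depended on it. With total-count scaling 2 rose and 9 fell. The median transcript length of the list was 5180 bases. Setdb2, an antiviral-response methyltransferase gene, was at 8.09, 7.29 and 6.28 CPM and then at 62.8, 43.9 and 65.7 CPM (log2 fold change 2.99 ± 0.21, adjusted p = 6.00e-10). Hdac5, a deacetylase that moves between nucleus and cytoplasm, was at 79.1, 81.8 and 86.3 CPM and then at 25.6, 24.0 and 16.4 CPM (-1.92 ± 0.16, adjusted p = 8.57e-09).

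Counts of ribosomal protein and respiratory chain genes, which have short transcripts, depended on the libraries used. Of 73 cytosolic ribosomal protein genes 24 rose and 0 fell (median 0.24), with 50 rises without PM_EPZ_LPS replicate 1, 6 without PM_EPZ replicate 1 or 2, 7 and 10 without PM_EPZ_LPS replicates 2 and 3, and 1 with total-count scaling. With the Rn45s share as a covariate 3 rose and 1 fell. Rpl24, the largest rise, was at 121, 104 and 126 CPM without LPS and at 195, 231 and 216 CPM under LPS (log2 fold change 0.87 ± 0.12, adjusted p = 8.17e-06). Of 70 respiratory chain subunits 21 rose and 0 fell (median 0.25), with 33 rises without PM_EPZ_LPS replicate 1, 13 without PM_EPZ replicate 1 or 2, 14, beside 2 falls, without PM_EPZ_LPS replicate 2, 3 with total-count scaling and 5, beside 1 fall, with the covariate. Cycs, cytochrome c, was at 19.7, 22.3 and 24.1 CPM and then at 47.5, 51.0 and 51.5 CPM (1.18 ± 0.15, adjusted p = 3.04e-06). Median transcript lengths were 1094 and 1087.5 bases. Of 33 tRNA synthetases and one-carbon genes 6 rose and 8 fell, with a median of -0.14 that was 0.02 with total-count scaling, where 1 rose and 1 fell. The rises and falls were 4 and 2 without PM_EPZ replicate 1, 2 and 3 without PM_EPZ replicate 2, 5 and 5 without PM_EPZ replicate 3, and 4 and 4 or 4 and 2 without PM_EPZ_LPS replicate 2 or 3. Wars, the tryptophan enzyme induced by interferon, rose from 34.5 ± 1.97 to 59.1 ± 4.00 CPM. The part of the Rn45s share in these counts was not tested beyond these fits.

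Calls among noncoding RNAs depended on the libraries used. Of 17 tested 2 rose and 2 fell (median -0.14), with 4 and 4 without PM_EPZ_LPS replicate 1, 3 and 1 with the Rn45s share as a covariate, 1 fall without PM_EPZ_LPS replicate 2 and 0 falls without PM_EPZ replicate 1 or 2. Mir155hg, the host of miR-155, was at 0.352, 0.768 and 0.331 CPM without LPS and at 35.8, 25.8 and 41.7 CPM under LPS (log2 fold change 6.07 ± 0.38, adjusted p = 1.37e-10), and Mir22hg rose from 7.65 ± 0.957 to 18.1 ± 1.51 CPM. Neat1 was at 210, 225 and 136 CPM and then at 106, 56.1 and 51.0 CPM, a call (adjusted p = 0.0288) that did not hold without PM_EPZ replicate 1 (0.0728) or 2 (0.0732) or PM_EPZ_LPS replicate 2 (0.0845). Rn45s itself was not called (-0.83 ± 0.75, adjusted p = 0.459) and was called lower without PM_EPZ_LPS replicate 1 (-1.94, adjusted p = 3.77e-18) and with the replicate number as a block (-1.21 ± 0.41, adjusted p = 0.047). In the fit with its own share as a covariate Rn45s is among the 3 rises, and that rise is not a result about its level.

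BV2, an immortalised mouse microglial line, was treated in the same ways (n = 2 per group) and shows where the response of primary cells differs. In a fit of all 10 libraries the response differed between the cells for 1418 of 11626 genes (12.2%), more upward in primary microglia for 1006 (8.65%) and more downward for 412 (3.54%). Among the genes with the largest gains, losses and falls above, Rsad2 had the largest called difference. It was at 4.68 and 5.95 CPM without LPS and at 25.5 and 34.7 CPM with LPS in BV2, compared with 4523, 3674 and 4425 CPM in primary cells with LPS on the scale of this fit. The difference of log2 responses was 9.65 ± 0.51 (adjusted p = 6.02e-14). Ifit2 was at 4.05 and 3.64 CPM and then at 2.69 and 6.20 CPM in BV2, where the groups overlapped (difference 8.0 ± 0.54, adjusted p = 1.25e-11), and Cmpk2 was at 2.18 and 1.65 CPM and then at 15.4 and 14.4 CPM (difference 8.0 ± 0.72). For Ccl3 and Tnf the line started higher, with Ccl3 at 144 and 139 CPM without LPS and at 988 and 1154 CPM with LPS (difference 5.55 ± 0.24). Tnf was at 37.1 and 25.4 CPM and then at 708 and 629 CPM in BV2 (difference 4.91 ± 0.26).

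The falls differed too. Arhgap19 in BV2 was at 78.6 and 86.6 CPM without LPS and at 54.0 and 59.4 CPM with LPS, at a starting level near that of primary cells but with a smaller loss (difference -4.35 ± 0.27, adjusted p = 1.49e-12). Cebpa was at 43.7 and 40.3 CPM and then at 36.6 and 32.4 CPM in BV2 (difference -3.60 ± 0.23, adjusted p = 2.68e-12), so that primary cells with LPS, at 25.5, 36.7 and 26.9 CPM, lay near the values of the line. Rassf3 was at 39.6 and 38.0 CPM and then at 23.5 and 22.3 CPM (difference -3.37 ± 0.28). Fry and Gpr157 were low in BV2 throughout, at most 4.37 and 5.62 CPM, with differences of -3.20 ± 0.65 (adjusted p = 7.66e-04) and -3.09 ± 0.58 (adjusted p = 2.88e-04). Both calls were lost without BV2_EPZ_LPS replicate 1 (-2.49 ± 0.86, adjusted p = 0.0715 for Fry and -2.52 ± 0.82, adjusted p = 0.0847 for Gpr157). Downward differences numbered 876 without PM_EPZ_LPS replicate 1, 271 without BV2_EPZ replicate 1 and 273 without BV2_EPZ replicate 2.

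**Figure D5:**
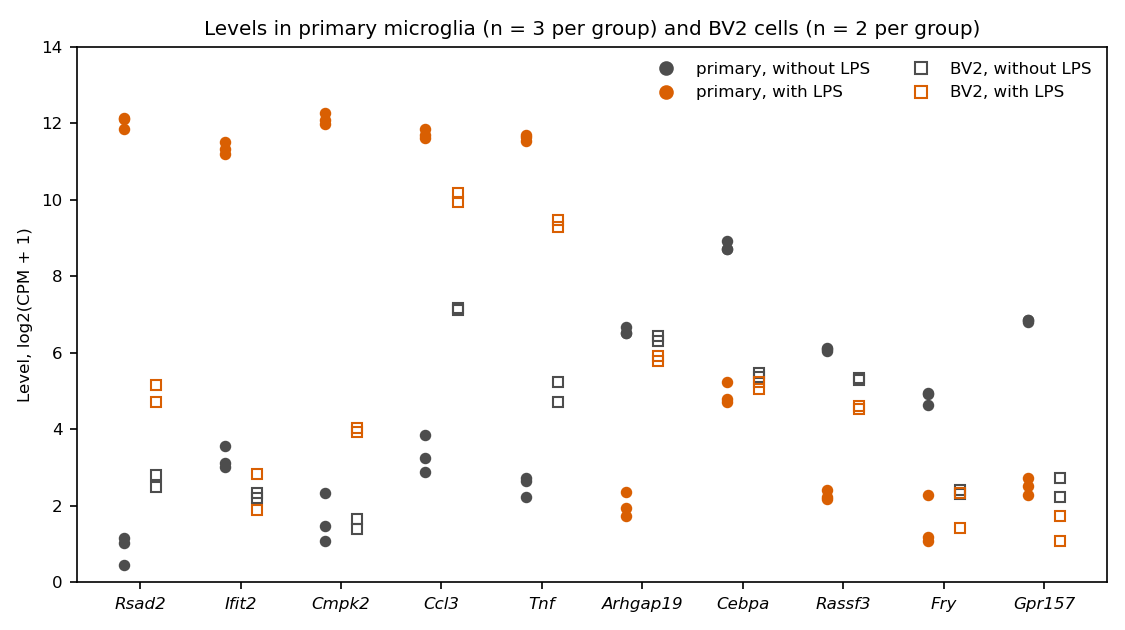
Level in each library, as log2(CPM + 1), of 10 genes without LPS (grey) and with LPS (orange). Filled circles are primary microglia (n = 3 per group) and open squares BV2 cells (n = 2 per group). The genes have the largest called difference of responses among those with the largest gains, losses and log2 falls in primary cells. Wide gaps between the circles are thus part of the choice. Grey and orange circles are far apart for each gene, while the squares lie closer together and overlap for Ifit2 and Fry.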

How the data were processed

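Read pairs from a directional library kit used after removal of ribosomal RNA were sequenced on a HiSeq2500, per the labels' protocols. The submitters' processing notes name CASAVA 1.8.2, Trimmomatic 0.33, STAR 2.5.1, DESeq2 and the build mm10, and no source used here names the gene annotation. The deposited values are raw counts per gene, and the column for reads of the reverse strand (column 4) was used. The first 4 rows, which name no gene, were left out. Together they held 70.4 to 76.2% of all reads in this column in the 6 libraries. Part of that share, 7.64 to 9.34% of all reads in the column, were reads that map to several places. The files do not split such reads among genes.

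Genes with at least 10 counts by edgeR's filter and 15 in total were kept, 10664 of 24411. LPS was tested with edgeR 4.0.16 (R 4.3.3, limma 3.58.1) by its robust quasi-likelihood F test, scaling by the trimmed mean of M values (TMM) and Benjamini-Hochberg adjustment over all tested genes, and called at an adjusted p under 0.05. Errors are SE for log2 fold changes and SD (n = 3) for CPM. The biological coefficient of variation was 13.1%. Gene counts of 2.75 to 3.68 M per library put the limit of 3 counts at 0.792 to 1.15 CPM; ratios for genes with 1 to 3 counts have 95% counting intervals, and limits and intervals cover counting error only. On simulated counts of 10664 genes with 200 changed, 20% of 1.5-fold, 80% of 2-fold, 96% of 4-fold and 100% of 8-fold changes were recovered with 11 false calls.

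Genes are named by rule: the 12 largest gains and losses of CPM and the 12 largest log2 falls from at least 20 CPM. Among these, the 10 with the largest called difference from BV2 are named for that difference. Each list adds up to 2 rises, 2 falls and the gene with most CPM, and PRC2 genes are named too. Other list members were chosen after their values, and how they held under the alternatives, were seen. The members and lists were chosen with earlier results of these data known. Coordinates are from RefSeq GRCm38.p6, matched by symbol for 10641 tested genes. Transcript length is that of the longest GENCODE transcript of a symbol, found for 10634 tested genes. Same-numbered libraries with and without LPS deviated together at 0.207, -0.113 and 0.238, which was not taken as pairing. The closest pair of libraries differed by 1.64 times the sampling noise (chi-square over its degrees of freedom), so all were counted. Alternatives covered the test (DESeq2 1.42.0), scaling, filters, Rn45s, strand, pairing, a 1.5-fold threshold, the libraries in the fit and each library left out. Some genes and 1 gene list are not reported here.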

Additional observations from a re-analysis of the deposited data

Results flagged for a closer look

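The LPS response of 10 named genes differed between primary microglia and BV2 cells in the test of the difference itself. The response was more upward in primary cells by 9.65 (log2) for Rsad2, 8.0 for Ifit2, 8.0 for Cmpk2, 5.55 for Ccl3 and 4.91 for Tnf. It was more downward by -4.35 for Arhgap19, -3.60 for Cebpa, -3.37 for Rassf3, -3.20 for Fry and -3.09 for Gpr157. The Fry and Gpr157 calls were lost without BV2_EPZ_LPS replicate 1 (adjusted p = 0.0715 and 0.0847). The 2 kinds of cells were cultured in different media, so cell type and culture cannot be told apart.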

How the results depend on the processing

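Of 4178 called genes, 2285 higher and 1893 lower, total-count scaling called 2456, with 898 lower, and moved the median of all genes from -0.03 to 0.10. Rn45s made up 15.7 to 51.7% of these totals, so the calls lost with that scaling follow in part from its share. With DESeq2 size factors in edgeR 4158 genes were called, and with Rn45s left out 4200. A test against a 1.5-fold change called 1898, 1156 higher and 742 lower. Leaving out 1 library at a time gave 3322 to 5326 calls, 1923 to 2765 higher and 1399 to 2561 lower. For the difference between cells total-count scaling called 698 genes, 549 upward and 149 downward, and leaving out 1 library gave 1002 to 1924, 731 to 1048 upward and 271 to 876 downward. With a replicate block the LPS response had 4479 calls and the difference 1685. DESeq2 called 3286 and 1128. With the log2 Rn45s share as a covariate 3385 genes were called. Tars went from a fall to 0.000234 ± 0.197 (adjusted p = 0.999), which shows no direction. Rn45s went to 0.44 (adjusted p = 0.0173), but there it was fitted on its own share, so this value is not a result about Rn45s. With PM_EPZ_LPS replicate 1 alone against the libraries without LPS, a fit added after the data were seen in which that lone library is assumed to vary like the others, 3312 genes were called. Among values of single named genes for the LPS response, 4545 kept their direction and call. The call was lost for 137 and gained for 6, and 2 reversed, those of Tars and Rn45s with the covariate. For the difference 178 kept both and 2 lost the call. In the simulation, with 200 of 10664 genes changed, 20% of 1.5-fold changes were recovered. In these data 39.2% of tested genes were called, a far larger part, so that recovery need not hold for them.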
